A study of Mus musculus with 6 samples.

Results

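The splicing factors and hnRNPs of bone marrow neutrophils are described here as 52 protein-coding genes of the 55401 genes in the table. They were taken by symbol, as all genes whose name begins with *Hnrnp*, with *Srsf* and a digit, with *Snrp*, or with *Sf3a* or *Sf3b*, and whose annotated transcripts include a protein-coding one. RNA-seq was performed on neutrophils sorted from the BM of C57BL/6 mice as CD45+ CD11b+ Ly6G+ cells. The mice were males 8 weeks of age. The Lig group had 3 libraries from mice that carried silk ligatures on the molars for 14 days, a model of periodontitis. The Ctrl group had 3 libraries from mice left without ligatures for the same time. Each library was a pool of neutrophils from 5 mice, so that the spread between libraries is a spread between pools. No sham procedure is described for the controls of these libraries, and effects of handling and of the ligature cannot be told apart. Of the 52 genes, 49 had a mean of at least 1 FPKM (fragments scaled to the length of the transcript and to the size of the library) over the 6 libraries and were tested. *Hnrnpa3*, *Srsf12* and *Snrpn* were not.

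Before an mRNA leaves the nucleus, its introns are removed by the spliceosome, a machine built from small nuclear RNAs and their bound proteins (snRNPs). The Sm proteins form a ring around most of these RNAs. The U1 snRNP reads the start of an intron, and the U2 snRNP, with the SF3A and SF3B complexes, reads its branch site. SR proteins bind exons and mostly recruit the spliceosome to nearby sites. The hnRNPs coat the nascent transcript, and many of them repress the use of nearby sites or steer export, stability and translation of the mRNA. Many genes of the SR and hnRNP families limit their own protein through transcripts that are destroyed by nonsense-mediated decay (NMD). Mature neutrophils have a segmented, compact nucleus and little RNA compared with their precursors. Intron retention is a known feature of late granulocyte maturation.

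The mRNAs of these factors differed little between the groups. With edgeR's quasi-likelihood test and Benjamini-Hochberg adjustment over the 9632 genes tested, 5 members fell in Lig (*Hnrnpa1*, *Sf3b3*, *Hnrnpab*, *Hnrnpr* and *Snrpf*), *Srsf11* rose, and 43 did not pass an adjusted p of 0.05. Of the falls, that of *Hnrnpr* concerns a gene that passed the filter only through its Ctrl level (means of 1.293 FPKM in Ctrl and 0.85 in Lig). The 6 members called are 12.2% of those tested, against a background of 10.4% of all genes tested, a share near the background and no result about the members as a set. For falls the shares were 10.2% of members and 6.43% of all genes, and for rises 1 member against 3.96% of all genes. The median log2 fold change of Lig over Ctrl was -0.055 over the members and -0.001 over all genes, and 33 of 49 members (67.3%) had a negative value, against 50.2% of all genes. The balance rested partly on single libraries: without the first Ctrl library 25 of 49 were negative, with a median of -0.025, and without the second 32 were, with a median of -0.1. At an unadjusted p under 0.05 there were 13 members.

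Within the main fit, the size of the difference was bounded for most members, called ones such as *Hnrnpab* and *Srsf11* included. The 95% confidence interval of the log2 fold change lay inside ±0.5 for 37 of 49 members (75.5%), compared with 51.5% of all genes. Where the mean level was at least 10 FPKM, it did so for 27 of 29 members (93.1%) and for 74.6% of all such genes. The intervals leave out the choice of scaling between libraries. With library-size scaling the median of all genes moved from -0.001 to -0.083. On TPM (FPKM rescaled to equal totals) it was -0.144. There, members such as *Hnrnpa2b1* (-0.13) and *Sf3b2* (-0.12) lay outside their intervals. Members were more abundant than other genes: their median level was 14.4 FPKM, against 6.015 FPKM for the other protein-coding genes tested, and 24 of 49 lay in the top 25% of all tested genes. The median coefficient of variation of FPKM between libraries was 6.9% in Ctrl and 6% in Lig.

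**Figure D1:**
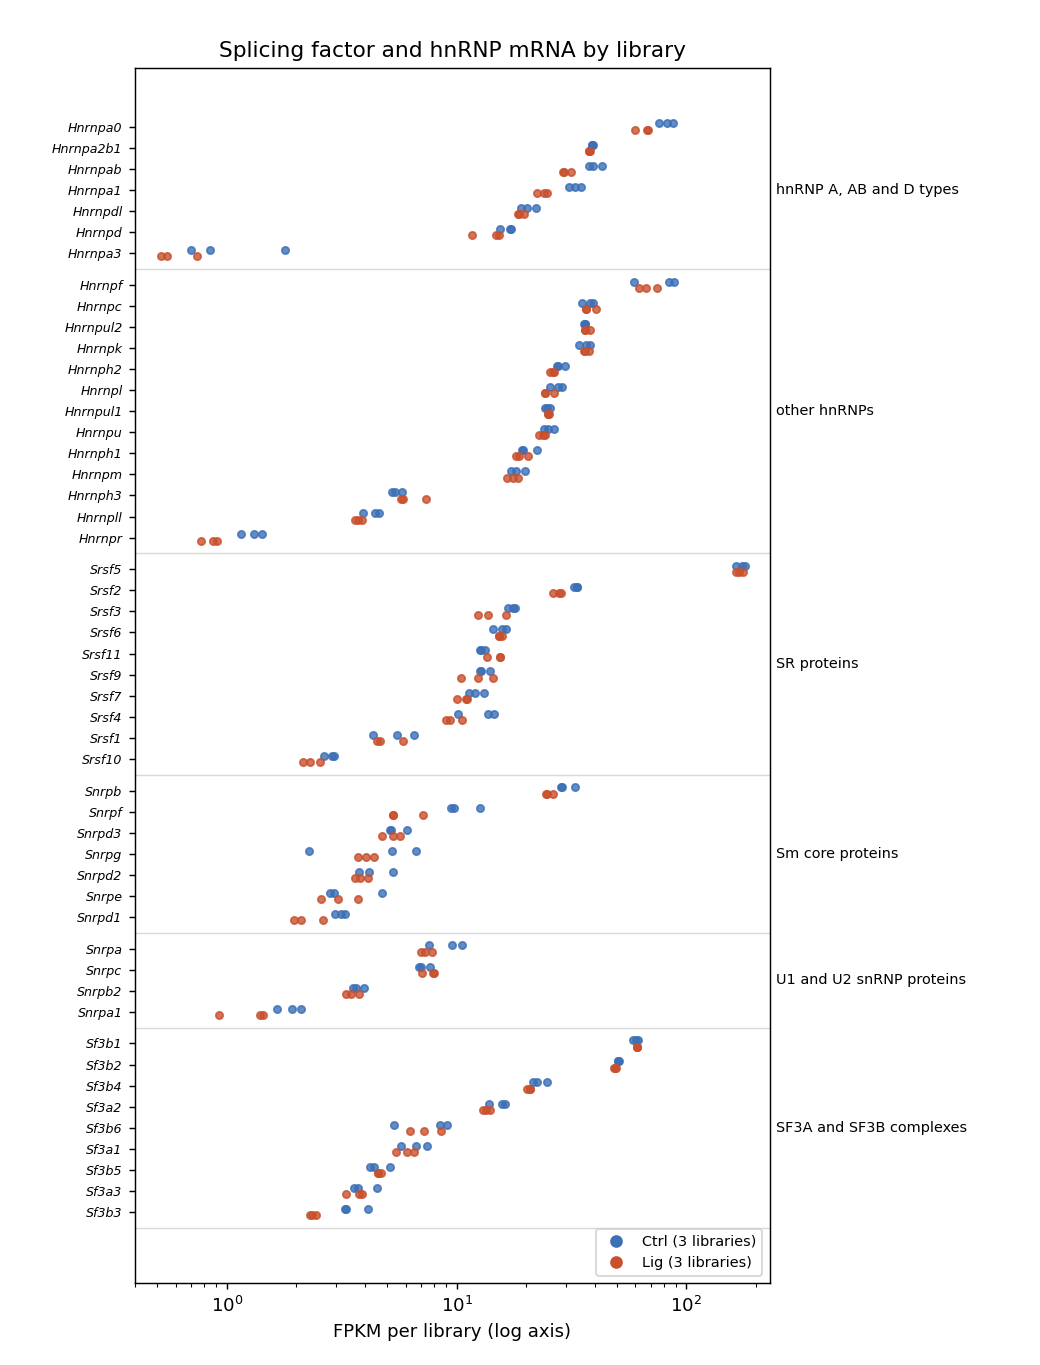
FPKM on a log axis (horizontal) for the 50 members with a mean above 0.5 FPKM, grouped by role (vertical), with blue points for the 3 Ctrl and red points for the 3 Lig libraries. The levels run from *Srsf5* near 170 FPKM to *Hnrnpa3* under 1 FPKM in most libraries, and for most members the points of both groups lie close together.

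The stretches just upstream of the start site are shown for the 6 members called, because these genes carry the differences described below. They are 100 bases long, read 5′ to 3′ on the strand of the gene from RefSeq (GRCm38.p6), and end before both the RefSeq start and the 5′ end in the deposited table. Capitals mark letters of 5 short motifs searched on both strands. The motifs are an ETS core (CCGGAA), the CCAAT box (CCAAT), a GC box (GGGCGG), an NRF1 core and a YY1 core (AAGATGGC), and no motif holds another within it.
Hnrnpa1 (chr15:103240297-103240396, plus strand): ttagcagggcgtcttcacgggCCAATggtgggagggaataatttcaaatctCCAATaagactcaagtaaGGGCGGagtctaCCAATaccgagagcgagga
Hnrnpab (chr11:51606882-51606981, minus strand): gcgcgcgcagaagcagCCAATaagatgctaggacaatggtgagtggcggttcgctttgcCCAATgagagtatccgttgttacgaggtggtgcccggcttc
Hnrnpr (chr4:136310842-136310941, plus strand): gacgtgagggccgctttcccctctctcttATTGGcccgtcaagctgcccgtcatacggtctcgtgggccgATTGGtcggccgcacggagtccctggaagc
Snrpf (chr10:93589707-93589806, minus strand): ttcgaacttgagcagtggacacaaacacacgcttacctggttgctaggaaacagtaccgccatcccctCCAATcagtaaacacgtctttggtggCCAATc
Sf3b3 (chr8:110846804-110846903, minus strand): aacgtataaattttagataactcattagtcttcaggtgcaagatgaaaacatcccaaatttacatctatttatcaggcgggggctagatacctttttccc
Srsf11 (chr3:158036640-158036739, minus strand): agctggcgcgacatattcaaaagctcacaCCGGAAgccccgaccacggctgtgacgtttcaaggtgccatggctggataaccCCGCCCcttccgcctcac

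CCAAT boxes stand in 4 of these 6 stretches, with 3 copies upstream of *Hnrnpa1* and 2 each upstream of *Hnrnpab*, *Hnrnpr* and *Snrpf*. No share over other members or other genes was taken for these short stretches. The count therefore has no background, and the shares given below are for a longer window. The *Srsf11* stretch holds an ETS core and a GC box, and the *Sf3b3* stretch holds none of the 5 motifs. In the 300 bases around the start (250 before it and 50 after), an entry was found for 43 of the 49 tested members and 6556 of all tested genes. The CCAAT box was present in 46.5% of these members, 39% of the tested genes and 37.4% of all 32851 promoters. The ETS core was present in 53.5% of the members, against 32.2% of tested genes and 14.9% of all promoters. In this wider window *Sf3b3* holds both a CCAAT box and an ETS core. For the GC box the shares were 69.8%, 66.1% and 35.7%, for the NRF1 core 14%, 11.3% and 4.6%, and for the YY1 core 4.7%, 5.3% and 2.7%, in the same order. A match of letters is a description of the sequence, and no binding was measured in these libraries.

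Among the hnRNPs of the A, AB and D types, 2 of 6 tested members fell, and the median log2 fold change was -0.21. These proteins bind short purine-rich or AU-rich motifs, and A1 is the best-known antagonist of SR proteins at splice sites. *Hnrnpa1* (ENSMUSG00000046434, chr15:103240432-103246692 on GRCm38) stood at 34.66, 30.95 and 32.85 FPKM in the Ctrl libraries and at 24.68, 24.10 and 22.48 in the Lig libraries. Every Lig library lay below every Ctrl library, and the lowest Ctrl value was above the highest Lig value by more than the range of either group. The level was 32.8 ± 1.86 FPKM in Ctrl and 23.8 ± 1.14 in Lig (mean ± SD, n = 3), with a log2 fold change of -0.39 ± 0.06 (SE; edgeR adjusted p = 0.0147).

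*Hnrnpab* (ENSMUSG00000020358, chr11:51600100-51606847), a relative of *Hnrnpd* that binds RNA and single-stranded DNA, stood at 42.85, 39.06 and 37.53 FPKM in Ctrl and at 29.16, 31.55 and 29.47 in Lig. The groups again did not overlap. Its log2 fold change was -0.33 ± 0.07 (edgeR adjusted p = 0.0259). *Hnrnpa0*, which binds AU-rich elements in mRNAs, was the most abundant member of the group, with 86.98, 75.71 and 82.10 FPKM in Ctrl and 59.53, 68.10 and 67.51 in Lig. Its groups did not overlap either, but with a log2 fold change of -0.25 ± 0.07 it missed the threshold (edgeR adjusted p = 0.0624; 0.0242 to 0.16 over the alternatives). *Hnrnpa2b1*, a close relative of *Hnrnpa1*, averaged 39.0 FPKM in Ctrl and 37.7 in Lig, with a 95% interval of the log2 fold change from -0.08 to 0.13. *Hnrnpd* (AUF1, known for the decay of AU-rich mRNAs) and *Hnrnpdl* had log2 fold changes of -0.17 and -0.04, neither past the threshold. *Hnrnpa3* lay just under the filter, at 0.85, 0.70 and 1.80 FPKM in Ctrl and 0.55, 0.74 and 0.52 in Lig. It was not tested.

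Of the other 13 hnRNPs, only *Hnrnpr* passed the threshold, and the median log2 fold change was -0.02. HNRNPR is an RNA-binding protein closely related to SYNCRIP and is found in both nucleus and cytoplasm. *Hnrnpr* (ENSMUSG00000066037, chr4:136310942-136342966) was a weakly expressed member, with 1.31, 1.15 and 1.42 FPKM in Ctrl and 0.77, 0.91 and 0.87 in Lig. The groups did not overlap, and the log2 fold change was -0.53 ± 0.11 (edgeR adjusted p = 0.0264). It passed the filter through its Ctrl level, since its Lig mean of 0.85 FPKM lay under 1, and it stands just inside the filter where *Hnrnpa3* stands just outside.

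The abundant hnRNPs of this group lay close together in Ctrl and Lig. *Hnrnpf*, which binds runs of G, was the most abundant, with 83.66, 59.34 and 88.10 FPKM in Ctrl and 66.49, 62.18 and 74.43 in Lig. The second Ctrl library was below all Lig libraries, and the log2 fold change of -0.11 ± 0.14 did not pass (edgeR adjusted p = 0.658). *Hnrnpc* (a binder of U tracts), *Hnrnpk* (a binder of C-rich RNA), *Hnrnpul1* and *Hnrnpul2* had log2 fold changes from 0.09 to 0.11, none past the threshold. *Hnrnpl* and *Hnrnpll*, which bind CA repeats and are known in T cells for the splicing of the CD45 mRNA, had values of -0.06 and -0.13. *Hnrnpu*, *Hnrnpm*, *Hnrnph1* and *Hnrnph2* lay between -0.03 and 0.01. *Hnrnph3* had the largest positive value of the group, 0.28, with an adjusted p of 0.191 in edgeR.

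The SR proteins had 1 rise and no fall among 10 tested genes, with a median log2 fold change of -0.08. *Srsf11* (ENSMUSG00000055436, chr3:158010473-158036639) encodes an SR-related protein first described as p54. Its levels were 12.66, 12.73 and 13.30 FPKM in Ctrl and at 15.52, 15.42 and 13.60 in Lig, and its lowest Lig library exceeded the highest Ctrl library by less than the range within Ctrl. The log2 fold change was 0.28 ± 0.07 (edgeR adjusted p = 0.0491; 0.00909 to 0.287 over the alternatives). Reads of the overlapping predicted gene *Gm43362* on the same strand, listed at 1.103 FPKM in Ctrl and 1.16 in Lig, could have been shared with it.

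*Srsf5* had the highest level of all 52 members and hardly differed. Its levels were 175.30, 180.29 and 164.51 FPKM in Ctrl and at 175.54, 169.41 and 163.73 in Lig, with a log2 fold change of 0.04 ± 0.06 (edgeR adjusted p = 0.677) whose sign changed with the scaling. *Srsf4* had the largest absolute change of the group, with 14.60, 10.13 and 13.76 FPKM in Ctrl and 9.02, 10.56 and 9.35 in Lig. Its second Ctrl library lay among the Lig libraries. The log2 fold change was -0.34 ± 0.13 (edgeR adjusted p = 0.15), and without that library the adjusted p was 0.038, in a range of 0.038 to 0.344 over all alternatives. *Srsf2* (SC35), which is mutated in human myelodysplastic syndromes, averaged 33.0 ± 0.464 FPKM in Ctrl and 27.6 ± 1.10 in Lig without overlap, and also missed the threshold (log2 fold change -0.19, edgeR adjusted p = 0.0777; 0.0173 to 0.296 over the alternatives). *Srsf1*, *Srsf3*, *Srsf6*, *Srsf7*, *Srsf9* and *Srsf10* had log2 fold changes from -0.22 to 0.06. *Srsf12* was near 0, with at most 0.08 FPKM.

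Among the 7 tested Sm core genes, *Snrpf* fell, and the median log2 fold change was -0.14. SmF joins the Sm ring as part of a subcomplex with SmE and SmG. *Snrpf* (ENSMUSG00000020018, chr10:93583029-93589706) stood at 12.63, 9.50 and 9.75 FPKM in Ctrl and at 5.31, 5.28 and 7.15 in Lig. The 3 Lig libraries lay below the 3 Ctrl libraries, and the spread in each group was wide. It had the largest change of all members, a log2 fold change of -0.77 ± 0.18 with a 95% interval from -1.18 to -0.35 (edgeR adjusted p = 0.0378), and was counted with 261 to 761 counts per library.

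Its partners in the ring did not show a change of that size. *Snrpe* and *Snrpg* had log2 fold changes of -0.09 ± 0.24 and -0.14 ± 0.34, with intervals too wide to say that they differ from *Snrpf* or from 0. *Snrpg* spread from 2.27 to 6.63 FPKM within Ctrl. For *Snrpe* the processed pseudogene *Snrpert* was listed at a higher level (10.9 FPKM in Ctrl and 9.73 in Lig) than the gene itself (3.49 and 3.12), so the split of reads between them is uncertain. *Snrpb* (SmB), the most abundant Sm gene, stood at 32.59, 28.51 and 28.66 FPKM in Ctrl and at 24.57, 24.69 and 26.32 in Lig. Its groups did not overlap, and the log2 fold change was -0.17 ± 0.07 (edgeR adjusted p = 0.149; 0.0403 to 0.435 over the alternatives). *Snrpd1* had a log2 fold change of -0.41 ± 0.16 and missed the threshold (edgeR adjusted p = 0.139; 0.0405 to 0.318 over the alternatives), while *Snrpd2* and *Snrpd3* had values of -0.12 and 0.01. *Snrpn*, a relative of *Snrpb* from an imprinted locus that is mainly expressed in brain, was listed at 0 FPKM in 5 libraries and at 0.01 in the third Lig library.

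No protein gene of the U1 and U2 snRNPs passed among the 4 tested (edgeR adjusted p from 0.146 to 0.96), and the median log2 fold change was -0.13. *Snrpa*, which encodes the A protein of U1, was the most abundant, with 10.52, 7.55 and 9.59 FPKM in Ctrl and 6.97, 7.32 and 7.82 in Lig. The second Ctrl library lay within the Lig range, and the log2 fold change was -0.25 ± 0.12 (edgeR adjusted p = 0.233). *Snrpa1*, for the A protein of U2, had the largest absolute change of the group, with 2.10, 1.65 and 1.93 FPKM in Ctrl and 1.44, 0.93 and 1.39 in Lig. Its groups did not overlap, yet with a log2 fold change of -0.51 ± 0.20 it did not pass (edgeR adjusted p = 0.146). *Snrpc* and *Snrpb2*, for the C protein of U1 and the B protein of U2, had values of 0.17 and -0.01.

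Of the 9 genes of the SF3A and SF3B complexes, *Sf3b3* fell, and the median log2 fold change was -0.03. SF3B3 is a large scaffold protein of SF3B, and SF3B1 is the subunit that clamps the branch site and is recurrently mutated in human myelodysplastic syndromes. *Sf3b3* (ENSMUSG00000033732, chr8:110810239-110846787) stood at 4.10, 3.27 and 3.32 FPKM in Ctrl and at 2.30, 2.34 and 2.45 in Lig. The Lig libraries lay close together below all Ctrl libraries, with a log2 fold change of -0.52 ± 0.10 (edgeR adjusted p = 0.0205). The gene overlaps *Cog4* on the other strand (2.407 FPKM in Ctrl and 2.15 in Lig), and how strand was treated in counting is not stated in the sources used.

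*Sf3b1* was the most abundant gene of these complexes and differed little. Its levels were 60.47, 61.47 and 58.77 FPKM in Ctrl and at 60.98, 60.64 and 61.11 in Lig, with a log2 fold change of 0.09 ± 0.05 (edgeR adjusted p = 0.235) and a 95% interval from -0.01 to 0.20. *Sf3b2* followed at 50.6 FPKM in Ctrl and 49.0 in Lig, with an interval from -0.07 to 0.13. *Sf3a1*, *Sf3a2*, *Sf3a3*, *Sf3b4*, *Sf3b5* and *Sf3b6* had log2 fold changes from -0.11 to 0.08, none past the threshold. *Sf3b6*, a small subunit close to the branch site, had a wide interval, from -0.45 to 0.50.

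**Figure D2:**
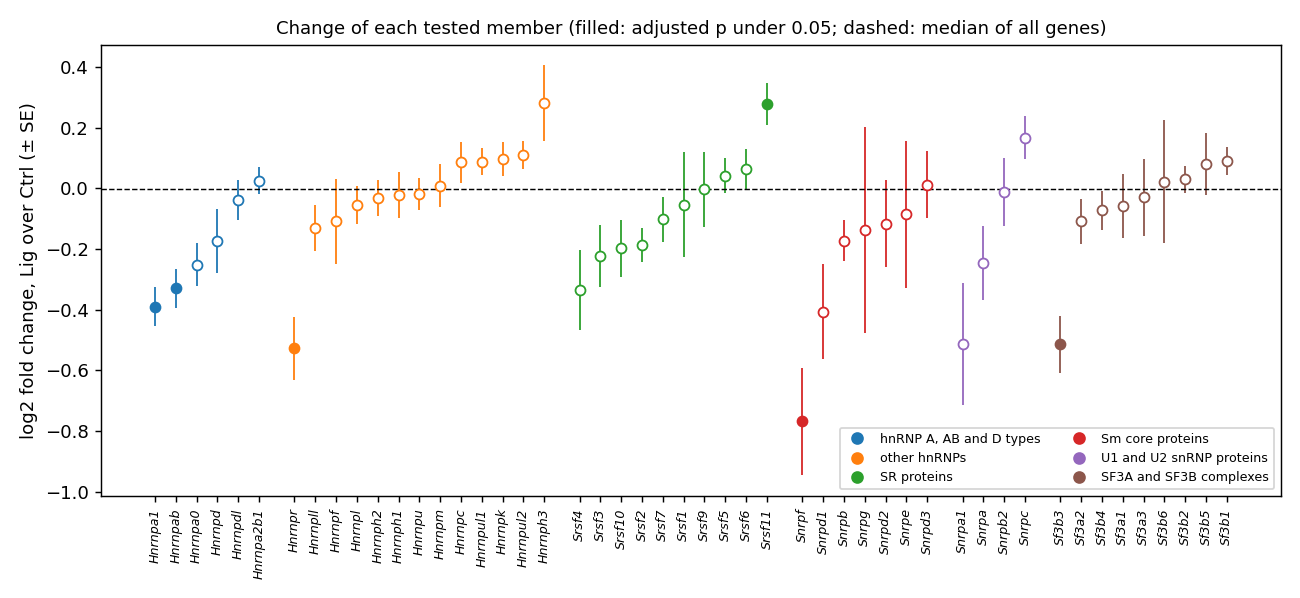
Log2 fold change of Lig over Ctrl with its SE (vertical) for the 49 tested members, ordered within each role (horizontal). Filled points mark an edgeR adjusted p under 0.05 and the dashed line is the median of all tested genes, -0.001. Filled points are 5 below the line and 1, *Srsf11*, above it.

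**Figure D3:**
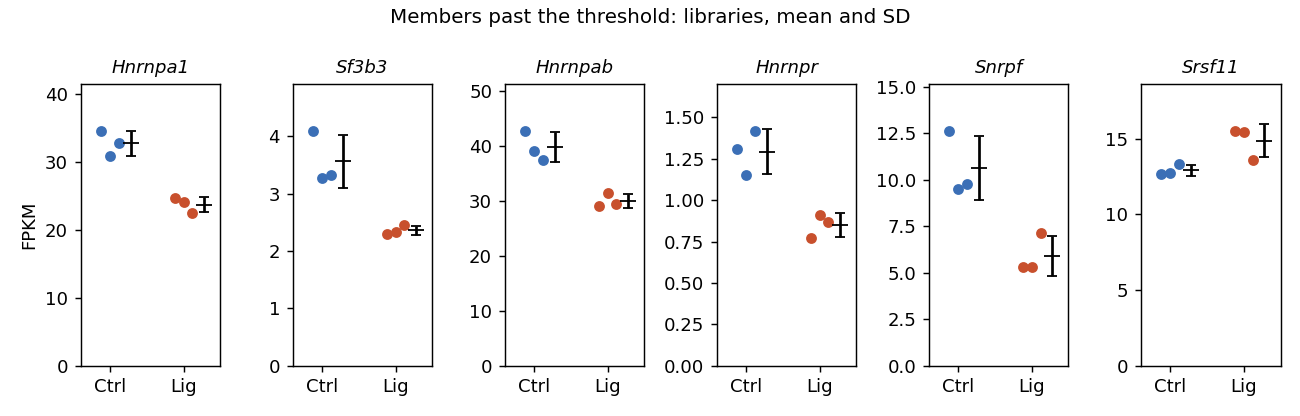
FPKM (vertical, from 0) of the 6 members past the threshold in each of the 3 Ctrl and 3 Lig libraries, with the mean and SD as a black bar. The groups do not overlap in any panel, and for *Srsf11* the gap runs only from 13.30 to 13.60 FPKM.

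How far the groups stood apart depended on the scale. On the deposited FPKM, which are not scaled between samples beyond library totals, all Lig libraries lay below all Ctrl libraries for 19 members (38.8%) and above for 1, against 24.9% and 9.9% of all tested genes. On TMM-scaled CPM (counts scaled to library size), the numbers were 11 members below (22.4%) and 6 above (12.2%), against 18.1% and 16.9% of all genes. *Hnrnpul2*, *Hnrnpk*, *Hnrnpul1*, *Hnrnph3* and *Sf3b1* joined *Srsf11* in the second set of genes above. The summed FPKM of all 52 members ran from 1092.39 to 1181.92 in Ctrl and from 1032.28 to 1041.95 in Lig. The members held 0.633% to 0.669% of all counts in the Ctrl libraries and 0.6% to 0.612% in the Lig libraries.

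Ratios taken within each library need no scaling between libraries, and their denominators were chosen after the values were seen. The FPKM ratio of *Hnrnpa1* to *Hnrnpa2b1* was 0.889, 0.786 and 0.848 in Ctrl and 0.657, 0.635 and 0.597 in Lig. The ratio of *Sf3b3* to *Sf3b1* was 0.0678, 0.0532 and 0.0565 in Ctrl and 0.0377, 0.0386 and 0.0401 in Lig. Both ratios separated the groups, as the levels did. The ratio of *Hnrnpab* to *Hnrnpc* was 1.09, 1.03 and 1.07 against 0.8, 0.781 and 0.808, that of *Hnrnpr* to *Hnrnpk* 0.0345, 0.0316 and 0.0419 against 0.0212, 0.0241 and 0.0242, and that of *Snrpf* to *Snrpd3* 2.07, 1.86 and 1.87 against 0.935, 0.998 and 1.51. For *Srsf11* over *Srsf5* the values were 0.0722, 0.0706 and 0.0808 in Ctrl and 0.0884, 0.091 and 0.0831 in Lig. None of these ratios overlapped between the groups, and none was tested. The numerators were the members already called, whose FPKM stood apart before any division. The separation was thus largely set beforehand and adds no support to the calls.

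The calls rest on few libraries, for all genes as for the members. Over all tested genes, 619 fell in the main fit. Leaving out Ctrl library 1, 2 or 3 gave 250, 445 or 200 falls. Leaving out Lig library 1, 2 or 3 gave 295, 358 or 195. Rises over all genes went from 381 to between 83 and 249. Fewer calls with 1 library less were thus not particular to the members. Without 1 library at a time, the number of members that fell was 1 without the first Ctrl library, 4 without the second and 1 without the third. It was 1 without the first Lig library, 3 without the second and 0 without the third, and the rise of *Srsf11* was lost in each case. *Hnrnpa1* passed in 3 of these 6 fits (edgeR adjusted p from 0.0266 to 0.0558), *Sf3b3* in 2 (0.0342 to 0.0686), *Hnrnpab* in 2 (0.0447 to 0.0903) and *Hnrnpr* in 2 (0.0317 to 0.095). *Snrpf* passed in 0 (0.0524 to 0.106), as did *Srsf11* (0.051 to 0.132). The sign of all 6 stayed the same in every alternative run. Their groups did not overlap on FPKM or on TMM-scaled CPM, so the sign was largely set beforehand and adds no support. Of the 49 members, 38 were called in none of the alternative runs.

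Transcripts of other marrow cells also differed between the sorted pools. Over all tested genes 6.43% fell, the share to set beside the counts below. The summed FPKM of the 12 erythroid markers ran from 1317.61 to 1773.08 in Ctrl and from 397.04 to 509.41 in Lig, and 11 of them fell. Some markers that fell passed the filter only through their Ctrl level. With Lig means under 1 FPKM, these were *Epor* and *Ermap* (erythroid), *Ms4a1* (B cells) and *Tcf7* (T and NK cells). For B cells 8 of 11 markers fell (sums of 106.93 to 138.23 and 54.91 to 60.95), for dividing cells 6 of 13 tested (101.69 to 121.24 and 68.64 to 85.18), for neutrophil progenitors 2 of 9 tested (225.12 to 244.16 and 151.2 to 193.66), and for T and NK cells 2 of 4 tested (15.9 to 17.45 and 10.71 to 13.75). For monocytes and macrophages 1 of 7 tested fell (53.5 to 54.83 and 38.71 to 40.8), for eosinophils, basophils and mast cells 0 of 6 tested (76.04 to 95.19 and 36.95 to 98.07), and for megakaryocytes the 1 gene tested did not pass (5.2 to 5.96 and 3.12 to 4.89). The markers of the sort and of neutrophils summed to 59315.76 to 67279.8 FPKM in Ctrl and 73910.16 to 82209.03 in Lig. Most of that sum was *S100a9* (means of 45060 FPKM in Ctrl and 56760 in Lig) and *S100a8* (14290 and 18910). The 3 of 8 that rose were *S100a8*, *S100a9* and *Ly6g*, against 3.96% of all genes. The other sort markers, *Itgam* and *Ptprc*, did not pass (edgeR adjusted p = 0.101 and 0.203). RNA quality and stress genes summed to 877.54 to 1128.13 and 731.56 to 943.8, and 2 of 7 fell. No marker of these lists was at 0 in all libraries. The sums for erythroid, B, T and NK, monocytic, megakaryocytic, progenitor and dividing cells were lower in Lig in all libraries, as were the 5 members that fell, and their part in these differences was not tested. In bulk libraries, fewer cells of a type and less RNA per cell cannot be told apart.

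The rest of the splicing machinery was read from 9 lists with 136 tested genes, of which 1 rose and 7 fell (5.9% called, against 10.4% of all genes), with a median log2 fold change of -0.04. The gene that rose was *Tra2a*, an SR-like activator of splicing, from 20.5 FPKM in Ctrl to 26.0 in Lig (log2 fold change 0.42 ± 0.06, edgeR adjusted p = 0.00944). In the same list of SR kinases and SR-related proteins *Rnps1*, which joins the exon junction complex, fell (-0.45, adjusted p = 0.012 in edgeR). *Prmt5*, the enzyme that dimethylates arginines of Sm proteins before the ring is assembled, fell from 1.64 to 0.787 FPKM (-0.99 ± 0.18, edgeR adjusted p = 0.0196), the 1 call among 9 genes of the SMN complex and snRNP assembly. Like *Hnrnpr*, it passed the filter through its Ctrl level. *Clns1a*, which chaperones Sm proteins next to *Prmt5*, had a value of -0.51 (adjusted p = 0.114 in edgeR).

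Of 16 tri-snRNP genes, *Snu13*, which binds the U4 RNA (-0.41, adjusted p = 0.038), and the U5 GTPase *Eftud2* (-0.51, adjusted p = 0.0477) fell in edgeR's test. Among other U1, U2 and U2AF factors, the helicase *Dhx15* did not pass (-0.20, edgeR adjusted p = 0.059). Of 22 Prp19 complex and catalytic-step genes, the ubiquitin ligase *Prpf19* fell (-0.41, edgeR adjusted p = 0.0388), and *Cwc15* did not pass (0.17, 0.113). Of 29 other regulators, the nuclear matrix protein *Matr3* fell (-0.42, edgeR adjusted p = 0.0266), and *Sfpq* did not pass (-0.15, 0.0893). No gene passed among 6 LSm proteins (smallest edgeR adjusted p 0.115 for *Lsm8*, then 0.184 for *Lsm3*), 8 of the exon junction complex (0.258 for *Magoh*, then 0.375 for *Casc3*) and 10 of the minor spliceosome (0.262 for *Pdcd7*, then 0.487 for *Zrsr2*).

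**Figure D4:**
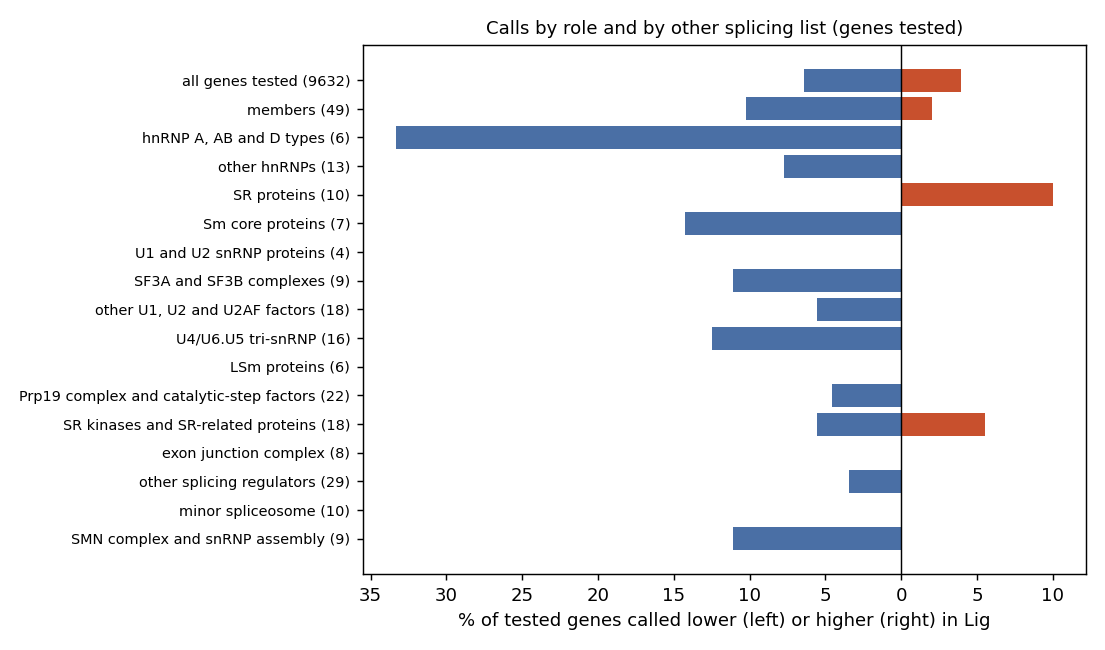
Percent of tested genes called lower (blue bars, to the left of 0) or higher (red bars, to the right) in Lig, for all genes, the members, the 6 roles and 9 further splicing lists, with the number tested in parentheses. The bars of small lists stand for 1 or 2 genes each, such as *Hnrnpa1* and *Hnrnpab* among 6 tested hnRNPs of the A, AB and D types.

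Some annotated features, which the symbols did not choose, were more frequent among the members than among other genes. By the transcript types deposited with the genes, 24 of 49 tested members (49%) have an annotated NMD transcript and 37 (75.5%) a retained-intron transcript. Among the other 7822 protein-coding genes tested the shares are 29.4% and 61.5%. The annotation release is not stated in the sources used. The members and the other genes were not matched for level or for the number of annotated transcripts. The gene-level values do not separate NMD or retained-intron transcripts from the others. Members with an NMD transcript included 2 that fell and the 1 that rose, with a median log2 fold change of -0.07, and the 25 without included 3 that fell, with a median of -0.03. Of the 24 most abundant members, 2 fell, and of the other 25, 3 fell and 1 rose. Processed pseudogenes of *Hnrnpa1*, *Srsf3* and *Snrpc* named after them in the table were listed at no more than 0.47 FPKM in any library, and pseudogenes under other symbols were not searched.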

How the data were processed

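Neutrophils of 3 Ctrl and 3 Lig pools were profiled by paired-end RNA-seq. The submitters' processing notes name cutadapt 1.9, FastQC and the GRCm38 build, and leave the aligner, the counter and the strand setting unnamed. The authors deposited FPKM and expected counts per gene, with 50605309 to 61455112 counts per library. The deposited counts are whole, but 40.2% to 41.3% of values from 1 to 16 per library were multiples of 4 (25% in an even spread), so that they may not be counts of read pairs.

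Genes with a mean of at least 1 FPKM were tested with edgeR 4.0.16 in R 4.3.3 (TMM, factors 1.01 to 1.05 in Ctrl and 0.97 to 0.98 in Lig, quasi-likelihood F test, 2-sided, no covariate, Benjamini-Hochberg over all tested genes). The SE is the absolute log2 fold change divided by the square root of F. The procedure was tested on simulated counts that gave every gene the same dispersion. Such counts cannot show how it behaves on genes that differ in spread, as these do. Replicate numbers are shared by the labels but did not pair the libraries (correlations of deviations -0.079 to 0.012). Alternatives changed the filter, scaling and tool (DESeq2 1.42.0, limma 3.58.1 on log2(FPKM + 1), with 0.1 as another pseudocount, and on TPM computed from FPKM), blocked on replicate number, divided counts by 4 and left out each library. Members, lists and roles were chosen with earlier results of these data known. Values per library are given for members past the threshold and, in each role, for the most abundant member and that with the largest absolute change, *Hnrnpa3* being added after its values were seen. Of each other splicing list, the 2 genes with the smallest p are named, except 1 gene that is not reported here. The CPM comparison and the within-library ratios were added after seeing the data.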

Additional observations from a re-analysis of the deposited data

How the results depend on the processing

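Over all genes, 381 rose and 619 fell, and the members gave 1 and 5. DESeq2 called 749 and 994 genes (members 1 and 6), library-size scaling 168 and 917 (0 and 7), limma on log2(FPKM + 1) 165 and 699 (0 and 5), limma with a pseudocount of 0.1 165 and 691 (0 and 5), limma on log2(TPM + 1) 97 and 1232 (0 and 8), a filter at 5 FPKM 228 and 376 (0 and 5) and no filter 257 and 410 (0 and 2). DESeq2-type size factors, TMM without the 50 most abundant genes and counts divided by 4 each kept 1 and 5 members, and the same 6. Elsewhere equal numbers did not always mean the same genes. Of these 6, DESeq2 kept 6, library-size scaling 5 and each limma run 4. The filter at 5 FPKM, which left *Hnrnpr* and *Sf3b3* untested, kept 3, and no filter kept 2. *Hnrnpr* passed in no limma run (limma adjusted p from 0.0618 to 0.101). With a replicate block 16 genes rose and 38 fell, and 0 members passed in either direction (10 at an unadjusted p under 0.05). Leaving out 1 library gave 83 to 249 higher and 195 to 445 lower genes, with 0 higher and 0 to 4 lower members. The sign of *Srsf5* turned negative with a filter at 5 FPKM (-0.002), library size (-0.039), limma on log2(FPKM + 1) (-0.031), on log2(FPKM + 0.1) (-0.032) and on TPM (-0.109), and that of *Sf3b1* on TPM (-0.061). Calls were higher in 38.1% of cases with TMM, 15.5% with library size, 19.1% with limma and 7.3% on TPM, where the median of all genes moved to -0.144 and that of the members to -0.188. Members with separate groups went from 19 lower and 1 higher on FPKM to 11 and 6 on TMM-scaled CPM.

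With 3 pools per group, differences near 0.2 on the log2 scale and larger ones can miss the threshold, as *Snrpa1* (-0.51) and *Snrpd1* (-0.41) did. The interval is wide for some members, such as *Snrpg* (-0.94 to 0.66). Protein and splicing itself were not measured here, and the causes of the differences between settings were not tested.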
